A study of Homo sapiens with 4 samples.

Results

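The cytosolic ribosomal protein genes encode the protein part of the ribosome that translates nuclear-encoded mRNA. The genes described here are the rows of the deposited expression table whose symbol has the form of a cytosolic ribosomal protein name (RPL or RPS followed by a number, RPLP0 to RPLP2, RPSA, and paralogs such as RPL22L1). The rule found 84 genes among the 20323 rows of the table. Of these, 46 encode proteins of the large (60S) subunit, 31 proteins of the small (40S) subunit and 7 are paralogs of another member. The study sequenced polyadenylated RNA of HT-1080, an established human fibrosarcoma line. There was 1 library of cells with a guide RNA against protein kinase A (genotype sgPKA), 1 library with a guide against ALKBH5, a demethylase of N6-methyladenosine in RNA (genotype sgALKBH5), and 2 libraries with a control guide (genotype sgNC), called control 1 and control 2. The labels give no clone, time point or treatment of the cells and do not say which kinase subunit was targeted. Nor do they say whether the controls were separate cultures. A p-value here thus reflects only the spread between the 2 control libraries, which may be technical.

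The ribosome is built in the nucleolus, where ribosomal RNA joins ribosomal proteins that are needed in equal numbers, with the stalk proteins RPLP1 and RPLP2 present in extra copies. The mRNAs of vertebrate ribosomal proteins start with a cytosine followed by a run of pyrimidines, the 5′ terminal oligopyrimidine (TOP) element. Through this element the kinase mTOR and the RNA-binding protein LARP1 control their translation and stability together. Several ribosomal proteins also act off the ribosome, among them RPL5 and RPL11, which bind MDM2.

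The start regions of a few members are printed to show which of them carry a TOP run at the listed start. Sequences come from RefSeq on GRCh38.p14, which is also the build in the submitters' processing notes, and 67 of the 84 members had an entry. Each line covers 15 bases before and 15 bases from the listed transcript start, 5′ to 3′, and capitals mark the unbroken run of C and T that begins with a C at that start, where it is at least 5 bases long. RPLP0 is shown as the most abundant large subunit member, RPS21, RPL18 and RPS26 for their low level in sgPKA, RPL9 and RPS7 for theirs in sgALKBH5, RPL22, RPS27 and RPL26 each with its paralog, and the paralog RPL7L1 without its main gene.
RPLP0, chr12:120201097-120201126, minus strand: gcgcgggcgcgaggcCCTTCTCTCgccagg
RPS21, chr20:62387088-62387117, plus strand: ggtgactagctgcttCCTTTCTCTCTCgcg
RPL18, chr19:48619164-48619193, minus strand: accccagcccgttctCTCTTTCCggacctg
RPS26, chr12:56041903-56041932, plus strand: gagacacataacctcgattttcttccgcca
RPL9, chr4:39458908-39458937, minus strand: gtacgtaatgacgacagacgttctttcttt
RPS7, chr2:3575245-3575274, plus strand: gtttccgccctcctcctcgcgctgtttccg
RPL22, chr1:6199581-6199610, minus strand: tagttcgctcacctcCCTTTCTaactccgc
RPL22L1, chr3:170870181-170870210, minus strand: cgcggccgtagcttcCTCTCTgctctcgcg
RPS27, chr1:153990747-153990776, plus strand: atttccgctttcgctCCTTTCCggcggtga
RPS27L, chr15:63157463-63157492, minus strand: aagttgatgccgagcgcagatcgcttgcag
RPL26, chr17:8383179-8383208, minus strand: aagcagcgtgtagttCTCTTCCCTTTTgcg
RPL26L1, chr5:172958714-172958743, plus strand: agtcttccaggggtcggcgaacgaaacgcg
RPL7L1, chr6:42879601-42879630, plus strand: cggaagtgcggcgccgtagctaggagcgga

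A run of this kind, read on the sense strand only, stood at 1 or more listed starts of 47 of the 67 members (70.1%), against 6.32% of the 15223 genes of the table with an entry. Among the paralogs shown, RPL22L1 carried a run of 6 bases, close to the 7 of its main gene RPL22. RPS27L, RPL26L1 and RPL7L1 had none at any listed start, whereas RPS27 and RPL26 had runs of 7 and 12 bases. RPS26, RPL9 and RPS7 also had no run beginning at a listed start. Their windows do hold runs of C and T, after the start in RPS26 and RPL9 and across it in RPS7. The count takes the listed start as exact, so a gene without a run here may still have a TOP element. The exact letters CTTTCC occurred from 25 bases before to 50 bases after a start in 34.3% of the members and 4.59% of the genes of the table. CCGGAAG, on either strand within the 300 bases given per start, occurred in 35.8% of the members and 16.8% of those genes. Over the 10439 genes with an entry that passed the filter on low counts, the shares were 7.49% for the run, 4.88% for CTTTCC and 22.1% for CCGGAAG. A match describes the letters and is not a measured binding site.

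Ribosomal protein mRNA made up 14.9% of the summed TPM (a length-corrected share of the transcripts) in sgPKA and 14.3% in sgALKBH5, against 14.6% in control 1 and 17.1% in control 2. The last library stood apart from the other 3, so the knockout libraries lay beside control 1 and below control 2. The spread between the 2 controls was larger than the distance of either knockout library from control 1. In bulk RNA, fewer cells with the transcript and less transcript per cell cannot be told apart. The large subunit genes held 8.71% of TPM in sgPKA, 8.30% in sgALKBH5, 8.34% in control 1 and 9.78% in control 2. The small subunit genes held 6.14%, 5.99%, 6.16% and 7.28% of TPM in the same order of libraries. The ratio of summed large to summed small subunit TPM was 1.42 in sgPKA and 1.39 in sgALKBH5, against 1.35 in control 1 and 1.34 in control 2.

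**Figure D1:**
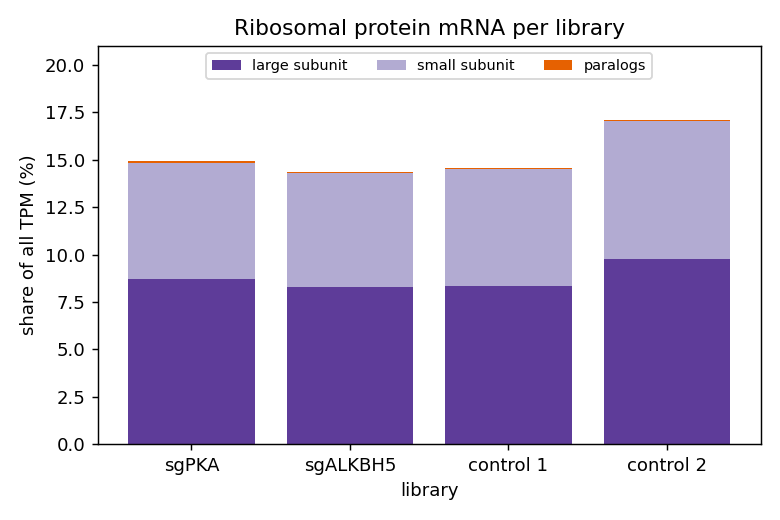
Share of all TPM (%) in the large subunit, small subunit and paralog genes in each of the 4 libraries. Control 2 reaches 17.1%, and the other 3 libraries lie between 14.3% and 14.9%.

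Library depth ran from 14050867 expected counts in sgPKA to 25937347 in sgALKBH5. PRKACA, the catalytic subunit alpha gene of protein kinase A, was at 10.6 TPM in sgPKA, compared with 60.5 and 70.1 TPM in the controls, and ALKBH5 at 37.5 TPM in sgALKBH5 against 80.2 and 67.6 TPM. All 10 mesenchymal markers in a list that includes VIM and FN1 were at 1 TPM or more in each library, while EPCAM and ALB were at 0 in all 4. The mesenchymal list as a whole summed to 14277 TPM in sgPKA and 16503 TPM in sgALKBH5, against 16079 and 13996 TPM in the controls. VIM was at 7839 TPM in sgPKA and 7853 TPM in sgALKBH5, against 6730 and 6840 TPM. FN1 differed widely, also between the controls, at 220 TPM in sgPKA and 745 TPM in sgALKBH5, against 1030 and 118 TPM. Of 8 markers of other cell types, at most 1 reached 1 TPM in a library, namely LYZ at 1.46 TPM in sgPKA and 1.93 TPM in control 2.

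Levels differed far more between members than between libraries. On the TPM scale, which is per length, 60 members averaged at least 1000 TPM, 19 lay from 100 to 1000 TPM and 5 lower, and the median was 1622 TPM for large and 1765 TPM for small subunit genes. RPS2, a small subunit protein at the mRNA entry channel, was the most abundant at 9187 TPM in sgPKA and 7842 TPM in sgALKBH5, against 8840 and 11004 TPM in controls 1 and 2. RPLP0, which anchors the stalk that recruits elongation factors, came next at 5614 TPM in sgPKA and 5534 TPM in sgALKBH5, against 5984 and 6977 TPM. For both genes control 2 was the highest library. RPL13A, also part of a complex that silences inflammatory mRNAs, was at 4705 TPM in sgPKA and 4898 TPM in sgALKBH5, against 4963 and 5412 TPM. RPSA, known also as the laminin receptor, was at 3756 TPM in sgPKA and 4455 TPM in sgALKBH5, against 4067 and 4784 TPM. RPL7A was at 3647 and 3857 TPM in sgPKA and sgALKBH5, against 4126 and 4629 TPM in the controls, and RPS18 at 3387 and 3244 TPM against 3138 and 3925 TPM. RPL13A, RPSA and RPL7A followed each other in the order of means. Each overlapped the next in its range over the 4 libraries, while RPL13A and RPL7A did not overlap.

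The stalk partners of RPLP0 were both below it. RPLP1 was at 1674 TPM in sgPKA and 1967 TPM in sgALKBH5, against 1794 and 1832 TPM in the controls. RPLP2 was at 1494 TPM in sgPKA and 1422 TPM in sgALKBH5, against 1592 and 2000 TPM, so both knockout libraries lay under both controls. RPLP1 was the 1 member for which TPM and counts told the controls apart differently by at least 0.1 beyond the median shift. Control 2 exceeded control 1 by 0.03 in log2 TPM and by 0.29 in log2 normalised counts.

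At the low end, RPL23A, which lines the exit of the nascent chain tunnel, was listed at 99.1 TPM in sgPKA and 69.8 TPM in sgALKBH5, against 79.2 and 74.3 TPM in the controls. RPS10 was listed at 158 TPM in sgPKA and 171 TPM in sgALKBH5, against 167 and 211 TPM. Many members have processed pseudogenes, and the sources used here do not give how reads shared with them were assigned. Counts were not whole in at least 1 library for 8 members, among them RPSA, RPL10, RPS15A, RPL36, RPL17, RPL36A and RPS10. The table also lists the readthrough loci RPS10-NUDT3, RPL17-C18orf32 and RPL36A-HNRNPH2, which overlap members, so the levels of these members are uncertain.

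**Figure D2:**
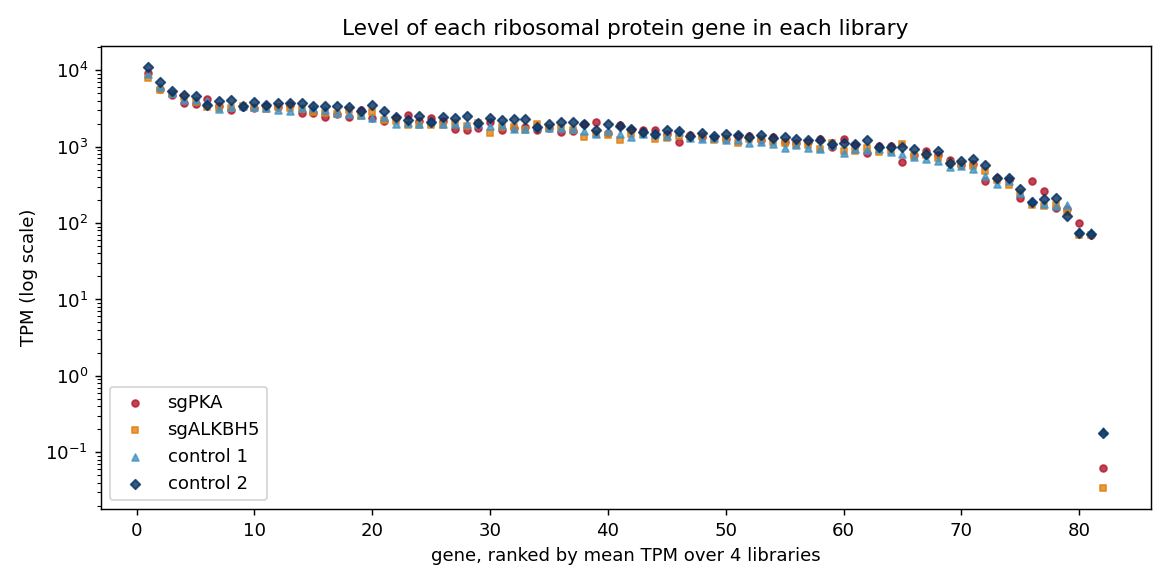
TPM on a log scale of the 82 members with a value above 0, ranked by their mean, with 1 marker per library. The 4 libraries lie close together for nearly all genes, with RPS2 at the left end and RPL3L alone below 1 TPM at the right end.

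Between libraries the levels of a member lay close together. For the 81 members that passed the filter on low counts, the ratio of the highest to the lowest library in normalised CPM (counts scaled to library size) had a median of 1.38. It ran from 1.15 in RPS4X, the X-linked copy of a small subunit gene, to 1.93 in RPL22L1, and reached at least 1.5 in 27 members. Control 2 was the highest library for 73 members, sgPKA for 4, control 1 for 3 and sgALKBH5 for 1. The lowest library was sgPKA for 39 members, sgALKBH5 for 24, control 1 for 17 and control 2 for 1. Highest and lowest libraries were not counted over all genes tested, so these counts are not read as particular to the members.

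The standard deviation over members of the log2 difference was 0.136 between sgALKBH5 and control 1, 0.155 between sgALKBH5 and control 2, 0.228 between sgPKA and control 1 and 0.274 between sgPKA and control 2. It was 0.166 between control 2 and control 1. Members thus shifted most unequally where sgPKA was involved. The standard deviation that counting error alone gives was about 0.02 in every pair. Over the 1649 tested genes with a mean of at least 100 TPM the same standard deviations ran from 0.306 (sgALKBH5 and control 1) to 0.680 (both knockouts).

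The sgPKA comparison sets 1 library with the guide against protein kinase A beside the 2 controls. An effect of the guide cannot be told apart from a difference between libraries. The edgeR quasi-likelihood test called 0 of the 81 members at an adjusted p of 0.05, and 0.0% of the 13061 genes tested. At an unadjusted p under 0.05 there were 2 members, RPL22L1 and RPS26, or 2.47% of the members against 9.07% of all genes. DESeq2 called 0 members and 0.873% of all genes, and limma called 0 of both. PRKACA, at a log2 fold change of -2.77, was not called by edgeR either. In simulated data for sgPKA against control, edgeR recovered 17% of 4-fold and 71% of 16-fold changes. The changed genes were drawn at random from all genes tested, and recovery among the members alone was not measured. The lack of a call thus does not show an unchanged level. The median log2 fold change of the members was -0.23, beside -0.03 over all genes tested and -0.24 over genes with a mean of at least 100 TPM. By normalised CPM 48 members lay below both controls and 4 above both, while 37.8% of all genes tested lay below both and 38.6% above both. Among genes with a mean of at least 100 TPM, 62.4% lay below both controls, close to the 59.3% of the members. Above both controls lay 18.4% of those genes, against 4.94% of the members. Set against control 1 by itself the members' median was -0.05, with 31 of 81 higher in sgPKA beside 49.1% of all genes. Set against control 2 by itself it was -0.40, with 6 of 81 higher beside 50.6% of all genes. Over genes with a mean of at least 100 TPM the medians were -0.18 against control 1 and -0.28 against control 2. The members thus lay above those genes with control 1 and below them with control 2. No member reached a log2 difference of 1 in either direction, against 14.5% of all genes. On the TPM scale sgPKA ran above the controls by a median of 0.15 over genes with a mean of at least 1 TPM. On that scale 22 members were higher than both controls and 30 lower than both, with a median of -0.05. The share of all genes so placed by TPM was not counted.

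Among the members with the lowest fold changes in sgPKA were RPS21, RPS29, RPL18 and RPS26. RPS21, a small subunit protein, was at 632 TPM in sgPKA, compared with 796 and 993 TPM in the controls. Its log2 fold change was -0.70 (standard error 0.27), and its adjusted p in edgeR was 0.527. It was at 1075 TPM in sgALKBH5, above both controls, the only member so placed in that library by CPM. On counts, its log2 difference in sgALKBH5 was 0.41 against control 1 alone but 0.004 against control 2 alone. RPS29, mutated in some cases of Diamond-Blackfan anaemia, was at 356 TPM in sgPKA, compared with 410 and 577 TPM, a log2 fold change of -0.66 (standard error 0.34). RPL18 was at 1649 TPM in sgPKA, compared with 1998 and 2522 TPM, a log2 fold change of -0.65. RPS26, which contacts mRNA at the exit channel and is encoded at chr12:56041918-56044697, was at 1157 TPM in sgPKA, compared with 1532 and 1615 TPM. Here the controls lay close together, and the log2 fold change was -0.64 (standard error 0.22), with an unadjusted p of 0.039 and an adjusted p of 0.527 in edgeR. All 4 lay below both controls on both scales.

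The 5 members with the highest fold changes in sgPKA were RPL22L1, RPL26, RPS27L, RPL23A and RPL7. RPL26, a large subunit protein, was at 2098 TPM in sgPKA, compared with 1441 and 1666 TPM in the controls, with a log2 fold change of 0.23 (standard error 0.23). RPL23A had a log2 fold change of 0.19, and RPL7 one of 0.13. RPL7 was at 1250 TPM in sgPKA, compared with 837 and 1131 TPM, and against control 2 alone its log2 difference was -0.11, so its sign rests on control 1. RPL22L1, RPS27L, RPL26 and RPL23A were the 4 members above both controls by CPM.

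**Figure D3:**
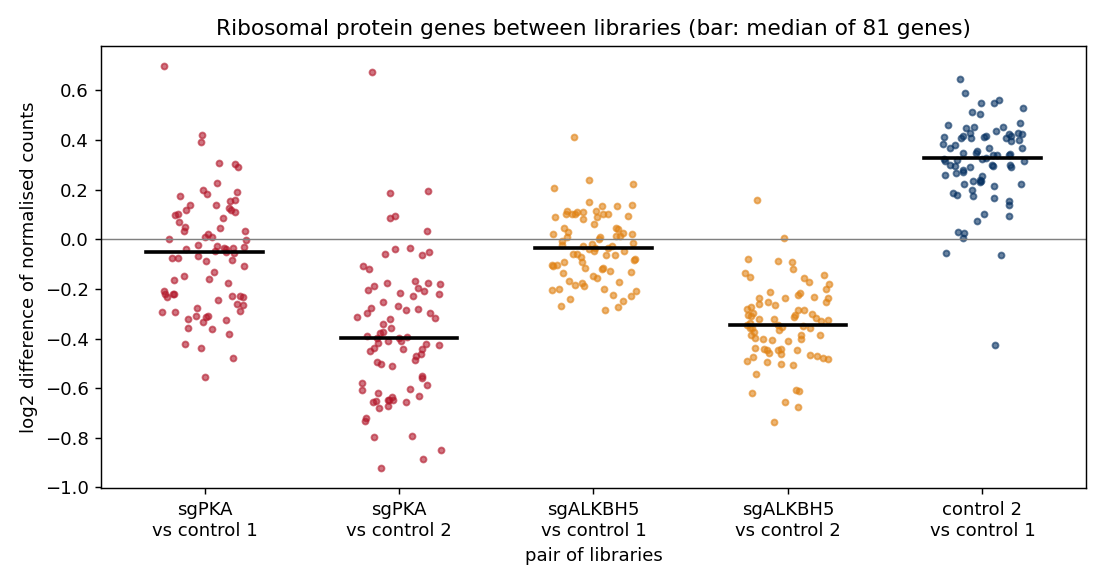
Log2 difference of normalised counts of the 81 tested members for 5 pairs of libraries, 1 point per gene, with the median as a bar. Both knockouts sit near 0 against control 1 and below 0 against control 2, and control 2 sits above control 1 with a median of 0.33.

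Within sgPKA the size of the difference tracked the base composition of the transcripts. Over the 81 tested members, the log2 fold change had a Spearman correlation of -0.71 with the GC content of the gene's protein-coding transcripts in GENCODE 29. The 27 members of lowest GC content (39.3% to 48.0%) had a median of -0.09, and 7 of them lay below both controls. The 27 in the middle (48.2% to 52.1%) had a median of -0.21, with 15 below both controls. The 27 of highest GC content (52.4% to 62.8%) had a median of -0.46, with 26 below both controls and 0 above both. The same correlation was -0.47 over 12907 tested genes, -0.51 over genes with a mean of at least 100 TPM and -0.72 over 74 mitochondrial ribosomal protein genes, so it was not confined to the cytosolic ribosome. In sgALKBH5 it was -0.04 over the members, 0.04 over all genes tested, -0.17 over genes with a mean of at least 100 TPM and -0.40 over the mitochondrial ribosomal protein genes. For control 2 against control 1 it was 0.15 over the members, 0.04 over all genes tested, 0.26 over genes with a mean of at least 100 TPM and 0.20 over the mitochondrial ribosomal protein genes. All members share the same libraries and normalisation, so these are descriptions of 4 libraries. The part of GC content in the differences of sgPKA was not tested.

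**Figure D4:**
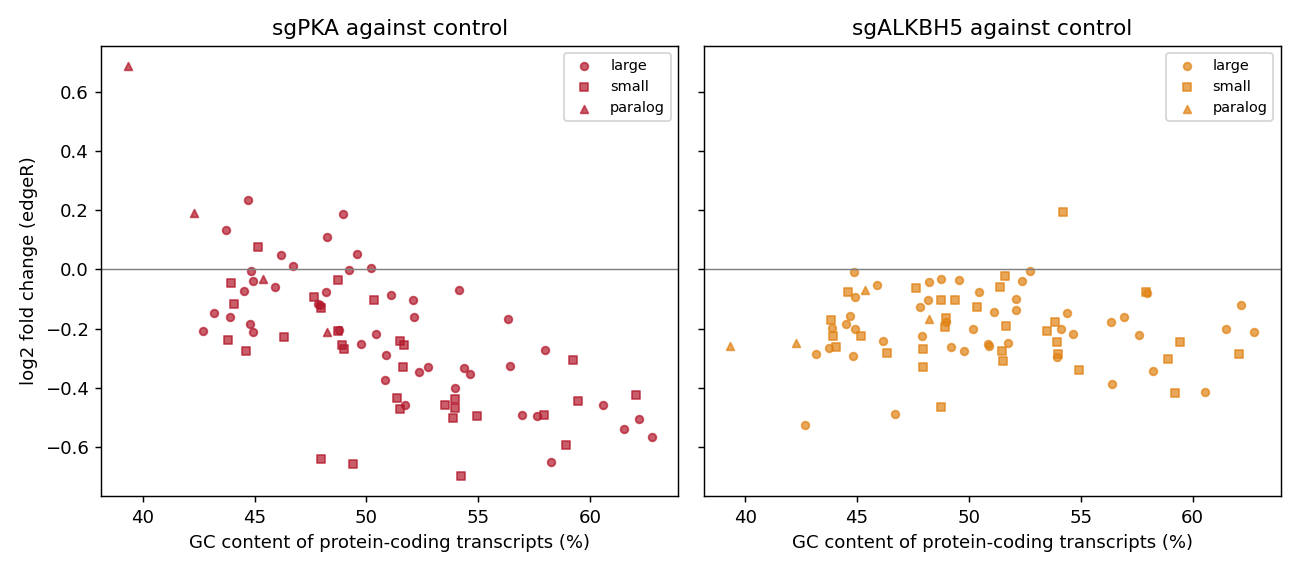
Log2 fold change from edgeR against the GC content (%) of protein-coding transcripts for the 81 tested members, in sgPKA (left) and sgALKBH5 (right) against the controls, with markers for subunit and paralogs. In sgPKA RPL22L1 is highest at 39.3% GC with 0.69, and all members from 52.4% GC upward lie below 0, while in sgALKBH5 the correlation is -0.04.

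By subunit, large subunit genes had a median of -0.18, with 23 of 46 below both controls in sgPKA, and small subunit genes one of -0.31, with 24 of 31 below both. Members with a TOP run at a listed start had a median of -0.27 (47 genes, median GC content 51.5%), and those with an entry but without a run -0.16 (19 tested genes, 49.4%). Transcript length had a Spearman correlation of 0.17 with the fold change over the members.

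The sgALKBH5 comparison, with 1 library of the guide against the demethylase, has the same limit. The edgeR test called 0 of the 81 members, beside 0.0% of all genes. At an unadjusted p under 0.05 it counted 0 members and 2.83% of all genes, and DESeq2 called 0 members and 0.253% of all genes. ALKBH5 itself, at a log2 fold change of -1.05, was not called by edgeR either, so the lack of a call does not show an unchanged level. The median log2 fold change of the members was -0.20, beside -0.01 over all genes tested and -0.06 over genes with a mean of at least 100 TPM. By CPM 46 members lay below both controls and 1 above both, while 33.4% of all genes lay below both and 33.5% above both. Among genes with a mean of at least 100 TPM, 42% lay below both and 28.5% above both, against 56.8% and 1.23% of the members. With control 1 as the sole control the members' median was -0.03, with 34 of 81 higher in sgALKBH5 beside 49.7% of all genes. With control 2 as the sole control it was -0.34, with 2 of 81 higher beside 50.3% of all genes. Over genes with a mean of at least 100 TPM the medians were -0.01 against control 1 and -0.09 against control 2. Here too no member reached a log2 difference of 1, against 9.71% of all genes. Large and small subunit genes had medians of -0.20 and -0.22.

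The lowest fold changes in sgALKBH5 belonged to RPL9, RPL23, RPS7, RPS2 and RPLP2. RPL9, a large subunit protein, was at 1527 TPM in sgALKBH5 against 1835 and 2355 TPM in the controls. Its log2 fold change was -0.53 (standard error 0.28), and its adjusted p in edgeR was 0.998. RPL23, another member that binds MDM2, was at 1231 TPM in sgALKBH5 against 1480 and 1846 TPM, a log2 fold change of -0.49. RPS7, which also binds MDM2, was at 1355 TPM in sgALKBH5 against 1582 and 1978 TPM, a log2 fold change of -0.46. In sgPKA the same 3 genes were at 2082, 1914 and 1987 TPM, above control 1 in each case and for RPL23 and RPS7 also above control 2. By normalised CPM all 3 lay between the controls in sgPKA. RPS2 and RPLP2 had log2 fold changes of -0.42 and -0.42 in sgALKBH5. At the other end RPS21 was highest, at a log2 fold change of 0.19 (standard error 0.26). RPLP1, RPL36A, RPS25 and RPL41, the smallest ribosomal protein, followed with values from -0.03 to 0.00, and all 4 turned positive on the TPM scale and against control 1 alone.

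Between the knockouts, sgPKA against sgALKBH5 gave 0 members called by edgeR, beside 0.0% of all genes, and 2 members and 11.6% of all genes at an unadjusted p under 0.05. DESeq2 called 0 members and 2.38% of all genes. The median of the members was -0.03 on counts and 0.07 on log2(TPM + 1). Over all genes tested it was -0.01 and 0.08, so the direction turned with the scale for both sets. The largest differences were those of RPL22L1, higher in sgPKA by 0.95 on the log2 scale with a standard error of 0.25, and RPS21, at -0.89 with a standard error of 0.31. Both had an adjusted p of 0.424 in edgeR.

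Control 2 exceeded control 1 in 78 of the 81 members by normalised CPM, or 96.3%, while it did so in 48.6% of all genes tested and in 59.6% of genes with a mean of at least 100 TPM. By TPM it exceeded control 1 in 74 members, a count that was not made over all genes. The median difference of the members was 0.33, with 0.35 for large and 0.32 for small subunit genes, against -0.01 over all genes tested. With 1 library on each side this difference has no test. The members named next were chosen after their values were seen. RPL8 differed most, by 0.65, followed by RPS29 at 0.59 and RPS27 at 0.56. RPL7L1 differed in the other direction, by -0.42. RPL4 and RPL26L1 were the other members lower in control 2, at -0.06 and -0.06.

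RPL5, one of the members that bind MDM2, was at 1261 TPM in sgPKA and 945 TPM in sgALKBH5, against 927 and 1202 TPM in the controls. Its partner RPL11 was at 1643 TPM in sgPKA and 1484 TPM in sgALKBH5, against 1338 and 1695 TPM. For both genes control 1 was the lowest library by TPM. RPS19, often mutated in Diamond-Blackfan anaemia, was at 2403 TPM in sgPKA and 2974 TPM in sgALKBH5, against 2674 and 3273 TPM. RPS27A, made as a fusion to ubiquitin, was at 571 TPM in sgPKA and 599 TPM in sgALKBH5, against 556 and 650 TPM. RPL10, which joins the 60S subunit late in its assembly, was at 3187 TPM in sgPKA and 3210 TPM in sgALKBH5, against 3310 and 3795 TPM, so both knockout libraries were under both controls. RPS4X was at 1438 TPM in sgPKA and 1345 TPM in sgALKBH5, against 1292 and 1392 TPM, and had the smallest ratio of highest to lowest library in normalised CPM. RPS6, the substrate of S6 kinase, was at 2559 TPM in sgPKA and 1893 TPM in sgALKBH5, against 2015 and 2210 TPM, and is named here after its values were seen.

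The paralogs stood in different proportions to their main genes from library to library. RPL22L1 (chromosome 3, 170864875 to 170870195) can take the place of RPL22 in the 60S subunit. It was at 355 TPM in sgPKA and 171 TPM in sgALKBH5, against 197 and 187 TPM in the controls (192 ± 6.90 TPM, SD, n = 2). The controls lay close together, sgPKA was above both and sgALKBH5 below both. The log2 fold change in sgPKA was 0.69 with a standard error of 0.21, an unadjusted p of 0.028 and an adjusted p of 0.527 in edgeR. RPL22 itself was at 390 TPM in sgPKA and 366 TPM in sgALKBH5, against 322 and 386 TPM. In TPM, RPL22L1 thus stood at 91.0% of RPL22 in sgPKA and 46.8% in sgALKBH5, against 61.1% and 48.4% in the controls. Its share of the counts of both genes was 32.9% in sgPKA (exact binomial 95% interval 31.6% to 34.2%) and 22.03% in sgALKBH5 (21.1% to 23.0%), against 27.0% (25.7% to 28.3%) and 22.9% (21.8% to 24.0%) in the controls. Intervals cover counting error only, and those of the 2 controls do not overlap. RPL22L1 also had the lowest GC content of the members tested, at 39.3%.

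RPS27L, a paralog that differs from RPS27 in few residues, was at 260 TPM in sgPKA and 165 TPM in sgALKBH5, against 180 and 206 TPM in the controls. Its log2 fold change in sgPKA was 0.19 with a standard error of 0.23, so the distance from the controls was within the standard error. It stood at 22.7% of RPS27 in sgPKA and 14.6% in sgALKBH5, against 18.6% and 15.4% in the controls. RPL26L1 was at 70.1 TPM in sgPKA and 70.2 TPM in sgALKBH5, against 77.1 and 71.5 TPM, below both controls in both knockout libraries. RPL7L1, a nucleolar relative of RPL7 with a part in ribosome assembly, was at 151 TPM in sgPKA and 142 TPM in sgALKBH5, against 174 and 122 TPM, between the controls. Paralogs with known use in muscle or testis were not detected or nearly so. RPL3L, the muscle form of RPL3, had 1 count in sgPKA and 1 in sgALKBH5, against 4 and 4 in the controls. RPL39L and RPL10L, known from testis, had 0 counts in all 4 libraries, where a count of 0 allows up to 3 counts, or 0.201 CPM in sgPKA, 0.118 CPM in sgALKBH5, and 0.165 and 0.167 CPM in the controls.

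**Figure D5:**
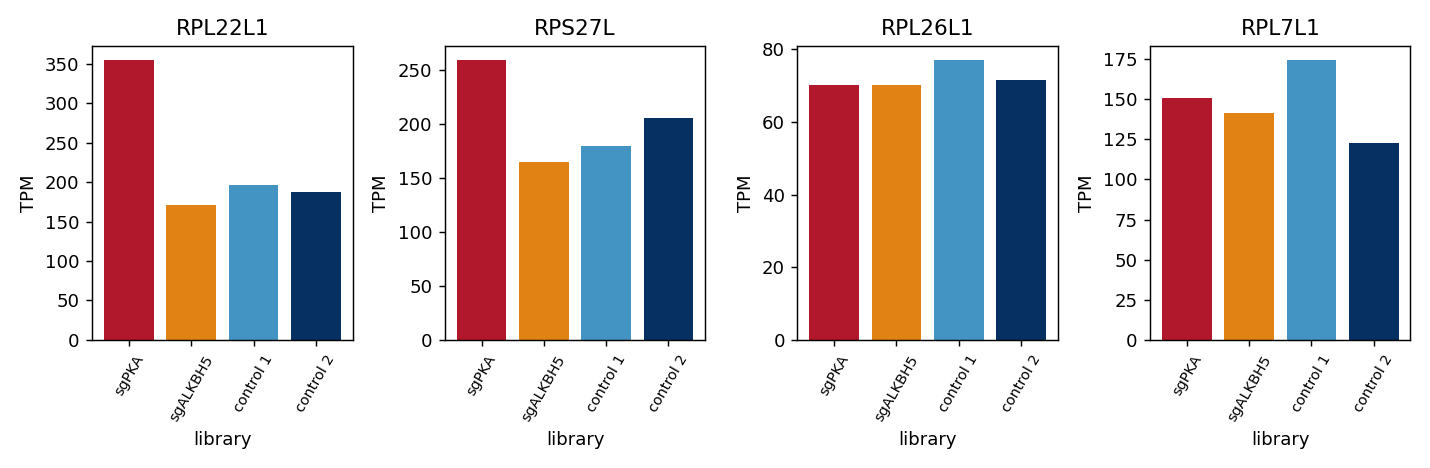
TPM of 4 paralogs in each library. RPL22L1 and RPS27L are highest in sgPKA, at 355 and 260 TPM, RPL26L1 lies between 70.1 and 77.1 TPM, and RPL7L1 is highest in control 1.

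Related genes were read from fixed lists for comparison, and edgeR called 0 genes of any list, as it called 0 of 13061 genes in all. Among ribosomal protein genes outside the symbol rule, FAU, whose product is cleaved to RPS30, was at 525 TPM in sgPKA and 695 TPM in sgALKBH5, against 673 and 820 TPM in the controls. RACK1, a scaffold on the 40S subunit, was at 3438 TPM in sgPKA and 3436 TPM in sgALKBH5, against 3572 and 3993 TPM. Both were under both controls in sgPKA. By normalised CPM 4 of the 5 genes of that list were, and by TPM 3 were, since RPL36AL lay between the controls by TPM. RPL36AL was at 117 TPM in sgPKA and 133 TPM in sgALKBH5, against 123 and 115 TPM.

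The 19 listed genes for other mRNAs with a TOP element had a median of 0.03 in sgPKA, with 8 above both controls and 7 below both, and a median of -0.14 in sgALKBH5, with 2 above and 11 below. Control 2 exceeded control 1 in 15 of them, with a median of 0.23. EEF1A1, the main carrier of aminoacyl-tRNA to the ribosome, was at 14133 TPM in sgPKA and 9958 TPM in sgALKBH5, against 10497 and 10551 TPM in the controls. EEF2, the translocation factor, was at 3332 TPM in sgPKA and 3577 TPM in sgALKBH5, against 3708 and 4370 TPM. EEF1G was at 3830 and 3724 TPM in sgPKA and sgALKBH5, against 3776 and 4818 TPM in the controls. These factors thus differed in direction among themselves in sgPKA, with EEF1A1 above both controls and EEF2 below both.

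Ribosome biogenesis genes had a median of 0.13 over 35 genes in sgPKA, with 19 above both controls and 12 below, and -0.12 in sgALKBH5, with 4 above and 19 below. EIF6, which keeps the subunits apart, was at 600 TPM in sgPKA and 643 TPM in sgALKBH5, against 608 and 717 TPM, and NHP2, a protein of box H/ACA particles, at 436 and 476 TPM against 544 and 566 TPM. The 15 RNA polymerase I genes had medians of 0.04 in sgPKA and -0.11 in sgALKBH5. The most abundant were POLR1D, at 228 TPM in sgPKA and 226 TPM in sgALKBH5 against 242 and 242 TPM, and TCOF1, at 122 and 143 TPM against 133 and 133 TPM. The 24 initiation factor genes had medians of -0.06 and -0.01 in sgPKA and sgALKBH5, led by EIF4A1 and EIF5A in level. EIF4A1 was at 2800 TPM in sgPKA and 2725 TPM in sgALKBH5, against 2888 and 2293 TPM, and EIF5A at 1556 and 1529 TPM against 1702 and 1727 TPM.

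The 15 genes of the list of TOP and ribosome regulators had medians of 0.02 in sgPKA and -0.06 in sgALKBH5. MYC, which drives transcription of ribosomal protein genes and biogenesis factors, was at 75.1 TPM in sgPKA and 39.4 TPM in sgALKBH5, against 49.3 and 48.7 TPM in the controls, with an adjusted p of 0.538 in sgPKA in edgeR. LARP1 was at 151 TPM in sgPKA and 152 TPM in sgALKBH5, against 162 and 123 TPM, and MTOR at 36.0 and 40.6 TPM against 31.4 and 31.8 TPM. CNBP and MAF1 were the most abundant of this list. CNBP was at 596 TPM in sgPKA and 427 TPM in sgALKBH5, against 428 and 426 TPM, and MAF1 at 153 and 164 TPM against 158 and 170 TPM.

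The 75 mitochondrial ribosomal protein genes, which build a separate ribosome, had a median log2 fold change of -0.18 in sgPKA and -0.16 in sgALKBH5, and of 0.07 for control 2 against control 1. Of them, 56.0% lay below both controls in sgPKA and 66.7% in sgALKBH5, and control 2 exceeded control 1 in 66.7%. The difference between the 2 sets of genes was not tested.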

How the data were processed

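The authors deposited 1 table with expected counts, which are not normalised, and TPM per gene and library, per the file headers. The tools listed are RSEM, StringTie 1.3.1, HISAT2 2.1.0 and fastp 0.18.0, on GRCh38.p14, per the submitters' processing notes, which assign them no roles, and the annotation release and the use of strand are not given in the sources used here. Of 86 rows matching the symbol rule, 2 repeated a symbol and had the lower mean TPM.

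After rounding to whole numbers, expected counts entered edgeR 4.0.16 (R 4.3.3) for its quasi-likelihood F test (TMM, filterByExpr, Benjamini-Hochberg over 13061 genes at 0.05), in 1 fit of 4 libraries and 3 groups. The spread came from the 2 controls (1 residual degree of freedom), so a knockout's only library is taken to vary as they do. The script was tested on simulated data. Alternatives were leaving out each control, fitting just the libraries under comparison, testing without the filter, DESeq2 1.42.0 or its size factors, and limma 3.58.1 with a pseudocount of 1 or 0.1 on log2 TPM. Standard errors were derived from that test, as the absolute log2 fold change divided by the square root of its F statistic. Normalised CPM are counts scaled by TMM. Control 2 was compared with control 1 after adding 0.05 CPM. GC content is the median over a gene's protein-coding transcripts.

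The members and lists were chosen with earlier results of these data known. Named were the 3 most abundant members per subunit, the 5 largest differences each way per knockout at a mean of at least 5 TPM, members set by role, and per list the 2 most abundant genes and some set by role. Some genes that the rule names are not reported here.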

Additional observations from a re-analysis of the deposited data

How the results depend on the processing

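No paired analysis was possible because each knockout has 1 library and shares fewer than 2 replicate numbers with the controls. DESeq2 called 114 genes in sgPKA, 33 in sgALKBH5 and 311 between the knockouts, where edgeR called 0, and no alternative called a member. With TPM in place of normalised counts, 22 members were higher than both controls and 30 lower than both in sgPKA, and 5 were higher than both in sgALKBH5. The share of all genes so placed by TPM was not counted. Against a single control, the members above ranged from 6 to 31 in sgPKA and from 2 to 34 in sgALKBH5, and those below from 50 to 75 and from 47 to 79. The members' median then ranged from -0.40 to -0.05 in sgPKA and from -0.34 to -0.03 in sgALKBH5. With 1 control left out no residual degree of freedom remained, so no test was made. By expected counts the members' share was 6.05% in sgPKA, 5.80% in sgALKBH5, 6.02% in control 1 and 7.37% in control 2. Without the 3 most abundant members it was 13.0%, 12.5%, 12.6% and 14.8% of TPM in the same order, and control 2 was the highest library under both. In sgPKA, RPL7 ranged from -0.11 without control 1 to 0.42 without control 2. In sgALKBH5 against control, limma on log2(TPM + 1) gave 0.118 for RPLP1, 0.0643 for RPL36A, 0.0412 for RPS25 and 0.0292 for RPL41, and log2(TPM + 0.1) gave 0.118, 0.0644, 0.0413 and 0.0292. DESeq2 size factors and the DESeq2 test gave RPLP1 values of 0.00033 and 0.00034. With each control left out, RPLP1 ranged from -0.14 to 0.15, RPL36A from -0.12 to 0.12, RPS25 from -0.0901 to 0.0472 and RPL41 from -0.0797 to 0.0138. The cause of these changes was not tested. The other 150 alternative values of named members kept their sign.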
